A study of Drosophila melanogaster with 24 samples.

Results

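H3R17me2 and H3K27me3 were compared gene by gene in heads of 40-day-old LKRSDH MB01942 mutant flies, with 2 ChIP-seq libraries per mark. A gene was taken to carry a mark where peaks covered at least 50% of its annotated body in both libraries of that mark, and to lack it where they covered less than 50% in both. Of 13945 protein-coding genes on the assembled chromosomes, 1165 carried both marks (8.35%), 870 carried H3R17me2 only (6.24%), 552 carried H3K27me3 only (3.96%) and 6377 carried neither (45.7%). The remaining 4981 genes (35.7%) had libraries of a mark on different sides of the 50% line and were left undecided. The 4 libraries belong to a series of 24, which holds 16 immunoprecipitated libraries and 8 inputs from 3-day-old and 40-day-old w1118 controls and mutants. Each sample came from 25 pooled heads of mated males collected at ZT8, that is 8 h after lights on, from flies kept on a light and dark cycle. MB01942 is an insertion in LKRSDH, homozygous in these flies, and it is the only allele profiled, so the allele and the gene cannot be told apart here. The w1118 flies are the control background into which mutants were backcrossed, and they enter this account only where the other 3 conditions are named. A head holds eye, brain, fat and cuticle cells, and in such bulk chromatin a mark on fewer cells and a weaker mark on every cell cannot be told apart. The peak lists hold no expression values, so the labelled tissue was not checked by markers.

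H3K27me3 is written by E(z) in Polycomb repressive complex PRC2, spreads over wide domains and is known for keeping developmental regulators such as the Hox genes silent. H3R17me2 is written by CARM1 in mammals and by its homolog Art4 in flies, and is mostly described at genes that are being activated. LKRSDH is an enzyme of lysine breakdown, and the study asked how both marks relate at the genes of the insulin-like peptides (dilp genes) and across the genome in young and aged heads.

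The libraries of the 2 marks differed in kind. The H3R17me2 lists held 16071 and 14583 peaks with a median length of 1659 and 2263 bp, and the H3K27me3 lists held 5730 and 4718 peaks of 2864 and 3174 bp. Covered length was 42.5 ± 7.17 Mb for H3R17me2 and 44.8 ± 0.256 Mb for H3K27me3 (SD, n = 2 libraries each). Median fold enrichment over input was close to 1.4 in every list, at 1.40 and 1.42 for H3R17me2 and 1.43 and 1.39 for H3K27me3. Peaks with a q-value under 0.05 numbered 18 and 5 in the H3R17me2 lists, against 623 and 1967 in the H3K27me3 lists. Replicates of H3K27me3 covered much the same genes, while those of H3R17me2 resembled each other no more than they resembled H3K27me3. Across genes, the covered share correlated at 0.87 between the H3K27me3 libraries, at 0.41 between the H3R17me2 libraries and at 0.36 to 0.41 between the marks (Pearson, 13945 genes, which share peaks and are not independent). On the autosomes alone these values were 0.88, 0.30 and 0.34 to 0.37. H3R17me2 peaks were nearly absent from the X chromosome, covering 0.674% and 0.201% of it, while H3K27me3 peaks covered 9.66% and 14.9%. The flies were male, with fewer copies of the X than of the autosomes, and the part of copy number in this was not tested. An exact permutation test of the X shares over 2 against 2 libraries gave p = 0.3333, the smallest p that this design allows. The inputs used for each list are not given in the sources used here, and the part of a shared input in the overlap of the marks was not tested.

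The 200 bases upstream of 5 genes, taken from all 4 classes by gene body, are printed below, and the genes were chosen after their values were seen. The sequences are from the RefSeq copy of the dm6 genome, are written 5′ to 3′ on the strand of the gene, and overlap no exon of a protein-coding gene. Capitals mark each match of 4 motifs on either strand, a match on the other strand being read as its reverse complement. They are GAGAG, bound by GAGA factor, GCCAT, the core bound by Pleiohomeotic, TATCGATA, the DNA replication-related element, and TATAAA, the TATA box. Ilp2, at chr3L:9799498-9799697 on the plus strand, encodes the insulin-like peptide dilp2, and its upstream bases lay under peaks in all 4 libraries. Ubx, a Hox gene, at chr3R:16734427-16734626 on the minus strand, did so as well. Ilp5, at chr3L:9823898-9824097 on the minus strand, encodes dilp5, a gene with H3R17me2 only, and its upstream bases were fully covered in 1 library of each mark. For unc-4, a homeobox gene with H3K27me3 only, at chrX:17768369-17768568 on the plus strand, both H3K27me3 libraries covered all 200 bases and the H3R17me2 libraries 0. eIF4B, a translation initiation factor gene with neither mark, at chr3L:27858272-27858471 on the minus strand, had 0% in all 4 libraries.
Ilp2: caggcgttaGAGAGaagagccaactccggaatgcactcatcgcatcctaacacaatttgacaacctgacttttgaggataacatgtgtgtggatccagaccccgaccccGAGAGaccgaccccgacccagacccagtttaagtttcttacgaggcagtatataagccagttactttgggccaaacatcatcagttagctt
Ubx: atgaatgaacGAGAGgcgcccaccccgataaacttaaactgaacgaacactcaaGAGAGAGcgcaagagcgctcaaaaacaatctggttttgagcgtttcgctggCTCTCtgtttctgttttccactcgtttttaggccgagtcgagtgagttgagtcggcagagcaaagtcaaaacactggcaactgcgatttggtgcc
Ilp5: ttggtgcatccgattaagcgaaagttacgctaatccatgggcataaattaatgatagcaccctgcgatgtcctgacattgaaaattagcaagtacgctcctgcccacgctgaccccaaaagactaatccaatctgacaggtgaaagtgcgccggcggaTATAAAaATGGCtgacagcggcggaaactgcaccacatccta
unc-4: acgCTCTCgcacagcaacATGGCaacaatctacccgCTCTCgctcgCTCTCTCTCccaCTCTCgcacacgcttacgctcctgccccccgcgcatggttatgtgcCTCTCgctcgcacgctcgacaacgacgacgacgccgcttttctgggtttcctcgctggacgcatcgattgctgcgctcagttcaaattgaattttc
eIF4B: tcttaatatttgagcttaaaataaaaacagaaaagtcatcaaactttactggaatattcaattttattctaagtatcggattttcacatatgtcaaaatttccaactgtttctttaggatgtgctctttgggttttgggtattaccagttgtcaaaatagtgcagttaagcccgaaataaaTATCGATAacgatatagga
The Ubx stretch held 4 matches of GAGAG and the unc-4 stretch 7, with 2 for Ilp2 and 0 for Ilp5 and eIF4B. The eIF4B stretch was the one of the 5 with a match of TATCGATA, and a match is a description of letters only.

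Over all genes, more carried H3R17me2 than H3K27me3 in a single library, and fewer did in both libraries together. H3R17me2 was carried by 3739 and 5239 genes in its libraries and H3K27me3 by 3508 and 3528. The means were 4489 ± 1061 and 3518 ± 14.1 genes (SD, n = 2 libraries each), and the difference of 971 genes gave p = 0.3333 in a two-sided exact permutation test, again the smallest possible. The difference turned negative where 80% of the body was asked for, at -595.5 genes, and where the 1 kb on either side of the start site replaced the body, at -107.5 genes. Among the 8157 genes that overlap no other gene it fell to 207 genes (exact permutation p = 1), with 2223 and 3123 genes carrying H3R17me2 and 2446 and 2486 carrying H3K27me3, so that the marks overlapped. In both libraries, H3R17me2 was carried by 2291 genes and H3K27me3 by 3040. Those 2291 genes were 61.3% and 43.7% of the genes in the single H3R17me2 libraries, while the 3040 were 86.7% and 86.2% of those with H3K27me3. Most undecided genes were therefore undecided through H3R17me2, with 4025 of the 4981 (80.8%) split by that mark alone and 585 split by H3K27me3 alone.

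Genes with both marks were 50.9% of those carrying H3R17me2 and 38.3% of those carrying H3K27me3. Among the 3040 H3K27me3 genes, 552 (18.2%) lacked H3R17me2 and 1323 (43.5%) had it in 1 library. Among the 2291 H3R17me2 genes, 870 (38.0%) lacked H3K27me3. These classes rest on the authors' lenient peak threshold. With peaks of -log10 p of at least 3, or of q under 0.05, 0 genes carried H3R17me2 in either library, while 736 and 1111 genes then counted as H3K27me3 only. Leaving out H3R17me2 replicate 1 gave 2079 genes with both marks, 2676 with H3R17me2 only and 961 with H3K27me3 only. Leaving out H3R17me2 replicate 2 gave 1574, 1766 and 1466.

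Coverage by H3K27me3 was all or none for most genes, and that by H3R17me2 was graded. Peaks covered part of the body, that is more than 0% and less than 100%, in 48.7% and 49.0% of genes for H3R17me2 and in 17.8% and 16.3% for H3K27me3. Many genes therefore lay near the line for H3R17me2, with 549 and 538 genes at 45% to under 50% and 474 and 504 at 50% to under 55%. The matching counts for H3K27me3 were 127 and 108 below the line and 124 and 98 above it. Full contrast, with 100% of the body in both libraries of a mark carried and 0% in both of a mark lacking, was seen in 257 genes with both marks, 88 with H3R17me2 only, 128 with H3K27me3 only and 3385 with neither. In 3690 genes (26.5%) both H3R17me2 libraries covered more of the body than both H3K27me3 libraries, and in 1629 (11.7%) the order was the other way round.

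**Figure D1:**
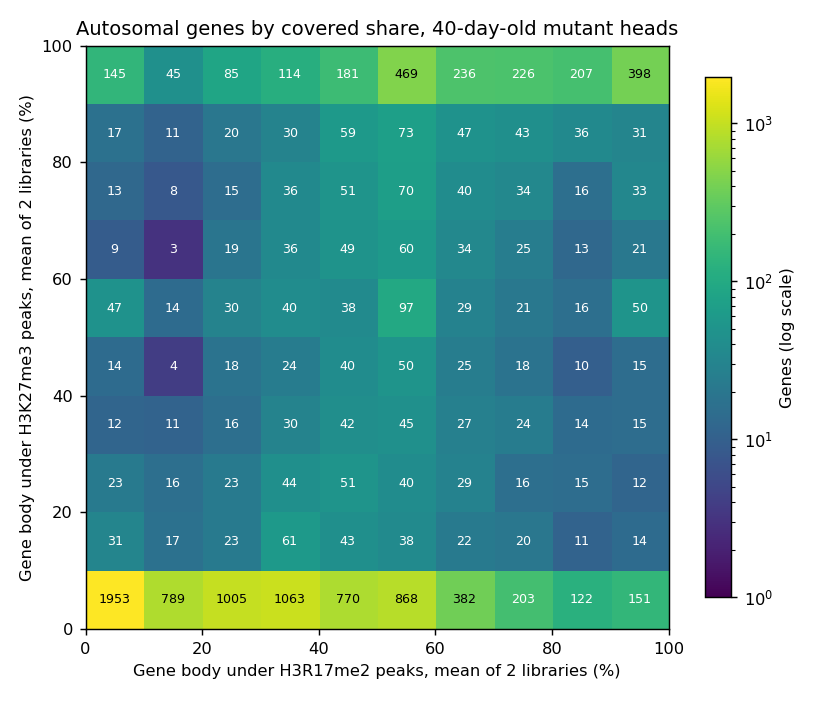
Number of autosomal protein-coding genes by the share of the gene body under H3R17me2 peaks (x axis, %) and under H3K27me3 peaks (y axis, %), each the mean of 2 libraries, in bins of 10 percentage points with the count printed and coloured on a log scale. The lowest row holds genes with little H3K27me3 at every level of H3R17me2, the top row holds genes almost fully covered by H3K27me3, and 1953 genes lie in the bin lowest for both.

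Genes with H3K27me3 carried H3R17me2 more often than other genes did, in both pairs of libraries with the same replicate number. In replicate 1, 50.9% of H3K27me3 genes and 18.7% of the other genes carried H3R17me2, and in replicate 2 the shares were 65.5% and 28.1%. The difference was 34.8 ± 3.62 percentage points (SD, n = 2 pairs) over all genes. On the autosomes it was 31.6 ± 4.16 points, from 52.1% against 23.5% and 69.3% against 34.8%. By bases, the H3R17me2 lists shared 22.2 Mb of the autosomes, which was 59.5% and 46.7% of their covered lengths. An H3R17me2 and an H3K27me3 list shared 20.6 to 26.3 Mb, or 54.6% to 56.0% of the H3R17me2 length. The H3K27me3 lists shared 36.3 Mb, or 85.8% and 87.5%. By themselves, the H3R17me2 lists covered 33.8% and 43.0% of the autosomes and the H3K27me3 lists 38.3% and 37.6%. These are the shares that the overlaps are read against. All 4 lists covered 12.3 Mb of the autosomes (11.1%) and none covered 37.5 Mb (33.9%).

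The X chromosome had no gene with both marks and none with H3R17me2 only among its 2196 genes, while 75 (3.42%) carried H3K27me3 only and 1997 (90.9%) neither. On the large autosome arms the share with both marks was 10.0% on 2L, 9.47% on 2R, 8.87% on 3L and 11.2% on 3R. Of the 80 genes of the small chromosome 4, 1 carried both. Without the X, 477 genes (4.06%) carried H3K27me3 only and 4380 (37.3%) neither.

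Fewer start sites than mid-body positions lay under H3R17me2 peaks, and the step was smaller for H3K27me3. Among genes with both marks, the start site was under a peak in 62.6% and 74.2% for H3R17me2 and in 85.2% and 85.4% for H3K27me3. For H3R17me2 only, it was under an H3R17me2 peak in 37.0% and 48.7%, against 16.8% and 27.1% of all genes. Across autosomal genes of at least 1 kb, 17.6% and 29.6% of start sites lay under an H3R17me2 peak, while at the middle of the body the shares were 40.5% and 50.2%, and 1 kb upstream 23.8% and 36.5%. For H3K27me3 the shares were 22.5% and 21.3% at the start and 27.6% and 27.1% at mid-body. At 20 kb upstream, H3K27me3 covered 55.1% and 56.3% of positions of genes with both marks, against 35.4% and 34.1% of all genes, while H3R17me2 covered 41.0% and 50.7% against 36.6% and 45.4%. Peaks on genes with both marks were longer for H3K27me3, with a median widest peak of 16001 and 21733 bp against 4140 and 6599 bp for H3R17me2. An H3K27me3 peak with q under 0.05 touched 35.2% and 89.2% of genes with both marks and 48.7% and 89.7% of those with H3K27me3 only, and an H3R17me2 peak of that kind touched 0 of the genes with H3R17me2.

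**Figure D2:**
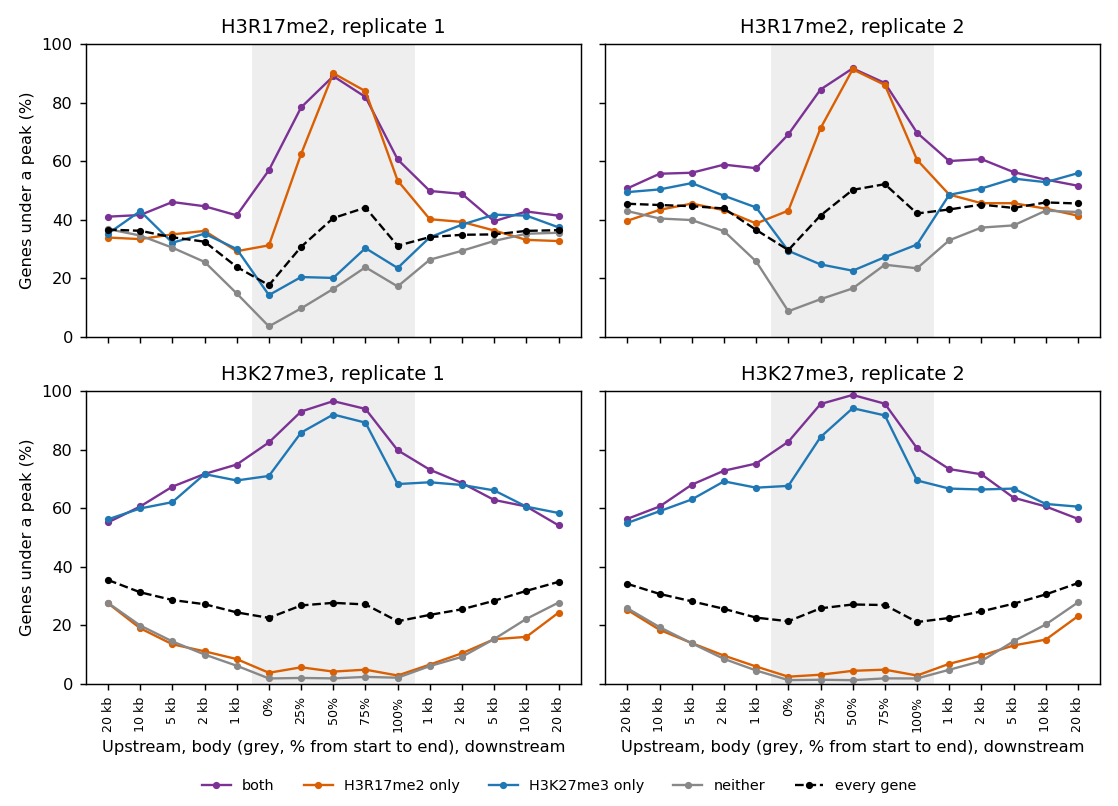
Percent of autosomal genes of at least 1 kb whose position lies under a peak (y axis), from 20 kb upstream through the body (grey, 0% at the start site) to 20 kb downstream (x axis, uneven steps), 1 panel per library and 1 line per mark class, with every gene dashed. The dashed line dips at the start site in both H3R17me2 panels, to 17.6% and 29.6%, and the lines at mid-body are set by the classes themselves.

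Gene structure and promoter letters varied between the classes. Median length was 1831 bp for both marks, 2508 bp for H3R17me2 only, 1858 bp for H3K27me3 only and 2301 bp for neither, against 2166 bp for all genes. H3K27me3 only held short and very long genes, with 30.1% under 1 kb and 14.7% over 20 kb, against 19.2% and 7.26% of all genes. Genes with H3R17me2 only overlapped another protein-coding gene in 50.7% of cases, against 28.4% with both marks and 41.5% of all genes. Peaks have no strand, so genes that overlap share their coverage. The promoter, taken from 250 bases before to 50 after the start site, held TATCGATA in 1.20% of genes with both marks (14 genes), 1.63% with H3K27me3 only (9 genes), 9.31% with H3R17me2 only and 13.2% with neither, against 9.36% of all promoters. GAGAG, whose matches mark the Ubx and unc-4 stretches above, was in 33.2%, 35.9%, 30.7% and 28.1% in that order of classes, against 29.7% of all promoters. GCCAT was in 46.2%, 48.9%, 39.4% and 40.6%, against 41.2%, and TATAAA in 43.5%, 36.2%, 44.7% and 46.5%, against 45.8%. Promoter GC content was 41.7% for both marks and for H3K27me3 only, 37.7% for H3R17me2 only and 37.0% for neither, against 38.0% for all genes.

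Neighbouring genes were often of the same class. The next gene along the chromosome was of the same class for 31.2% of genes with both marks and 20.6% with H3R17me2 only. It was so for 21.2% with H3K27me3 only and 69.2% with neither. These classes held 8.35%, 6.24%, 3.96% and 45.7% of all genes. On the autosomes alone the next gene matched for 31.2%, 20.6%, 17.4% and 57.4%. There the classes held 9.92%, 7.40%, 4.06% and 37.3% of genes. Runs of at least 5 genes, the X included, held 5.67% of genes with both marks and 50.3% of those with neither. Neighbours can share a peak. The runs named here were chosen after their values were seen. The longest run with both marks held 8 genes over 71.0 kb of chromosome arm 3R, around svp, a nuclear receptor gene. A run of 7 genes at chr3R:6661427-6696271 joined the Hox gene lab to Edg84A and 5 Ccp84A cuticle protein genes. Another of 7 genes covered 21.6 kb of the Enhancer of split complex, whose bHLH repressors answer to Notch. H3R17me2 only reached 5 genes in a row in 2 places. For H3K27me3 only, 6 genes in a row lay over 113.5 kb of 2R with the Polycomb group genes Psc and Su(z)2, and 4 on the X held upd1, upd2 and upd3, the ligands of the JAK/STAT pathway.

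The 5 longest genes at full contrast in each class were named by rule. With both marks they were CG43691, CG6262, CG14280, bsh, a homeobox gene of 3292 bp, and LManIV, a lysosomal mannosidase gene. With H3R17me2 only they were in, of 3062 bp, a planar polarity gene, CG16789, CG9444, CG18171 and Gpo2. With H3K27me3 only they were the transcription factor genes Lim1, Sp1, vnd, unc-4 and B-H2, and all 5 lie on the X, where H3R17me2 peaks were nearly absent. The longest genes with neither mark were Ten-a, of 291517 bp, and CG15465 and rg, which share their coordinates, again on the X.

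In 3 lists of developmental regulators every gene carried H3K27me3, and in another 12 of 14 did, against 21.8% of all genes (gsb is in 2 of these lists). Between 37.5% and 57.1% of each list carried both marks, where 8.35% of all genes and 38.3% of all H3K27me3 genes did. All 8 Hox genes, which set identity along the body axis, carried H3K27me3, and in 8 of 8 both H3K27me3 libraries covered more than both H3R17me2 libraries, against 11.7% of all genes. Dfd, the head Hox gene, was covered to 67.2% and 77.8% by H3R17me2 and to 100% in both H3K27me3 libraries. Ubx had 54.8% and 87.9% by H3R17me2 and 100% by H3K27me3, and lab 62.2% and 66.5% with 100%. These 3 carried both marks and the other 5 were undecided. Antp, for the thorax, had 35.2% and 69.4% by H3R17me2, and Abd-B, for the abdomen, 46.2% and 80.6%, so that replicate 2 was the higher library in each of the 5. All 17 Pax and retinal determination genes, which include the eye selectors, carried H3K27me3, and 8 of them carried both marks. Among these were Optix, with 70.9% and 100% by H3R17me2, eya, and gsb, at 100% in all 4 libraries. Six4 and toy carried H3K27me3 only. All 9 NK homeobox genes carried H3K27me3, 4 of them with both marks (C15, bap, lbe and lbl) and 2, scro and vnd, with H3K27me3 only. Of 14 segment polarity and Iroquois genes, 12 carried H3K27me3 and 8 both marks, among them hh, wg and eve. The neighbours ara and caup show how the line divides near values. ara was covered to 51.05% and 50.45% by H3R17me2 and counted as both, while caup, at 48.73% and 48.57%, counted as H3K27me3 only. The settings also move the list counts. With 20% of the body asked for, 8 Hox, 15 Pax and retinal, 6 NK and 11 segment polarity and Iroquois genes carried both marks. With 80% the counts were 0, 1, 1 and 2. With peaks of -log10 p of at least 3, 0 genes of these lists carried both, and 8, 17, 7 and 11 carried H3K27me3 only.

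Where 45.7% of all genes had neither mark, lists of genes that every cell uses had 62.5% to 81.5%. Over all genes, 8.35% carried both marks, 6.24% H3R17me2 only and 21.8% H3K27me3 with or without H3R17me2. Of 92 ribosomal protein genes, 75 (81.5%) had neither and 0 carried H3R17me2 in both libraries. The 3 with H3K27me3 were RpL10Aa, RpL22-like and RpL37-2, which are second copies of a ribosomal protein gene. Of 14 glycolysis genes, 11 (78.6%) had neither. Pgi, for the second step of glycolysis, carried H3R17me2 only, at 64.4% and 60.9% with 0% for H3K27me3, and Ald2, an aldolase copy, carried H3K27me3 only. Of 48 proteasome genes, 30 (62.5%) had neither and 7 (14.6%) both marks. Splitting them by name, after the values were seen, set apart 16 genes whose names end in T or R with a number or none, which mark the paralogs of a subunit gene. All 7 proteasome genes with both marks were among these 16, Prosalpha4T2, Prosalpha6T, Prosbeta4R1, Prosbeta4R2, Prosbeta5R1, Prosbeta5R2 and Rpt4R, and 9 of the 16 carried H3K27me3. Of the other 32, 0 carried H3K27me3 and 27 had neither mark. The 89 oxidative phosphorylation genes, 56 of them (62.9%) with neither mark, were split by name likewise. Of 25 whose names end in L with a number or none, 9 carried H3K27me3 and 4 both marks (ND-20L, ND-51L2, ND-B14.5AL and SdhCL). The split is by letters alone, and the L need not stand for "like" in every name, such as ND-MNLL. Of the other 64, 0 carried H3K27me3, 50 had neither mark, and ATPsynB, Cyt-c1, ND-49 and UQCR-C1 carried H3R17me2 only. Such paralogs are known in flies mostly from the testis.

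**Figure D3:**
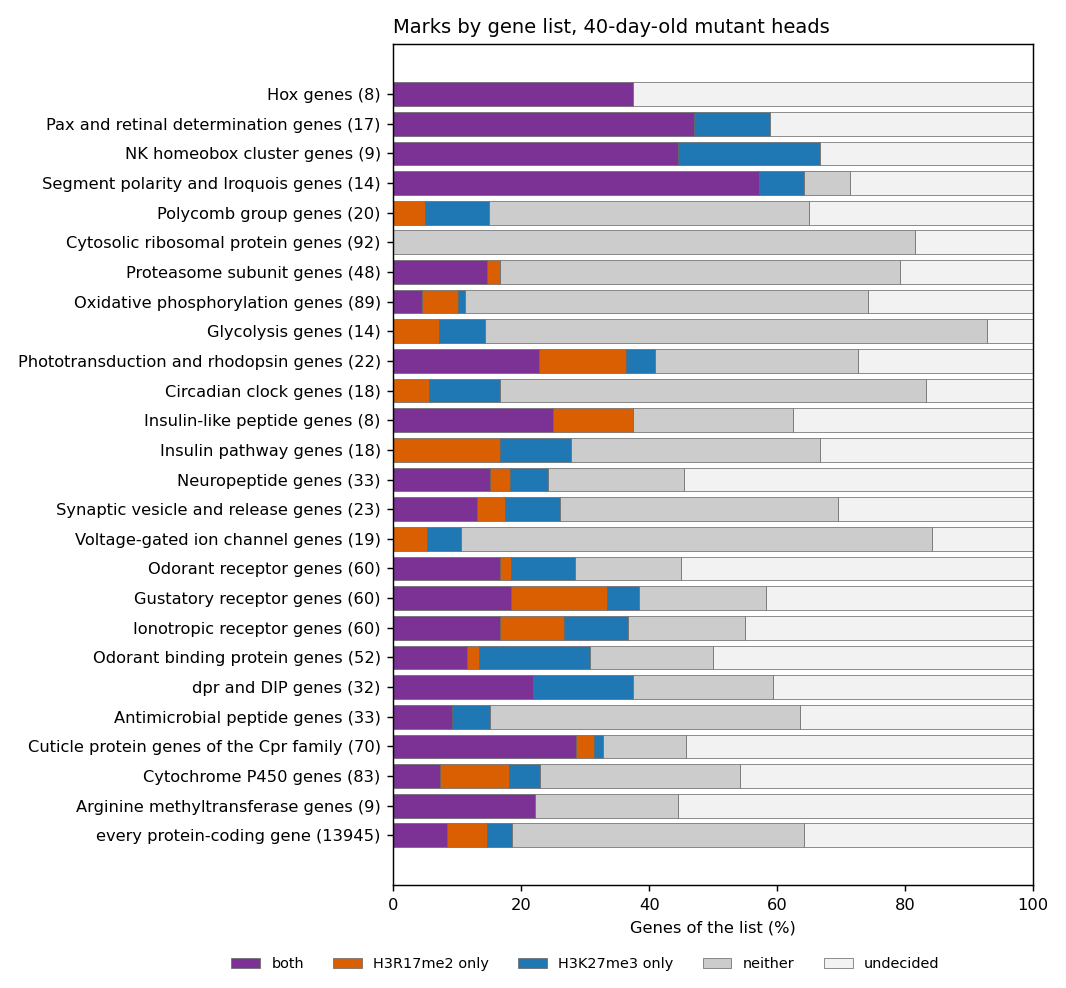
Percent of the genes of each list (x axis) with both marks, H3R17me2 only, H3K27me3 only, neither or undecided, with the number of genes in parentheses and every protein-coding gene in the lowest bar. Both marks hold 47.1% of the Pax and retinal determination genes, 28.6% of the Cpr cuticle protein genes and 0% of the ribosomal protein genes, against 8.35% of every gene.

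Photoreceptor genes were spread over the classes. Of 22 phototransduction and rhodopsin genes, 5 carried both marks (22.7%), 3 H3R17me2 only (13.6%), 1 H3K27me3 only (4.55%) and 7 neither (31.8%). All genes had 8.35%, 6.24%, 3.96% and 45.7% in these classes. Rh6, an opsin of R8 cells, was at 100% in all 4 libraries. Arr2, the major visual arrestin, had 100% and 72.3% by H3R17me2 and 100% by H3K27me3. The light-gated channel genes trp and trpl and the myosin gene ninaC also carried both marks, trp at 76.8% and 67.8% by H3R17me2 and at 57.5% and 98.6% by H3K27me3. ninaE, the major rhodopsin, had 76.0% and 100% by H3R17me2 and 0% by H3K27me3, and its chaperone ninaA had 100% in both libraries of H3R17me2 and 0% in those of H3K27me3. Rh5 was at 0% in all 4 libraries, and Rh7 carried H3K27me3 only.

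Of 23 genes for synaptic vesicles and transmitter release, 3 carried both marks (13.04%), 1 H3R17me2 only, 2 H3K27me3 only and 10 neither (43.5%). All genes had 8.35% with both, 6.24% with H3R17me2 only, 3.96% with H3K27me3 only and 45.7% with neither. For so short a list, the shares with both and with neither are near those of all genes. The cholinergic genes ChAT and VAChT, which share a locus, and the glutamate transporter gene VGlut carried both, with ChAT at 55.1% and 58.6% by H3R17me2 and at 83.9% and 78.6% by H3K27me3. DAT, for dopamine uptake, carried H3R17me2 only, and ple and SerT, for dopamine synthesis and serotonin uptake, H3K27me3 only. Of 33 neuropeptide genes, 5 (15.2%) carried both marks (CCHa2, Capa, FMRFa, Pburs and Ptth), against 8.35% of all genes. Capa was at 100% in all 4 libraries. H3K27me3 was carried by 14 of the 33 (42.4%), against 21.8% of all genes. Tk and Dh44 carried H3K27me3 only and Burs H3R17me2 only. Of 19 voltage-gated ion channel genes, 14 had neither mark (73.7%), against 45.7% of all genes, and 7 of the 19 lie on the X. sei, a potassium channel gene, carried H3R17me2 only, and Elk, another, H3K27me3 only. Of 32 dpr and DIP genes, whose surface proteins pair at synapses, 7 carried both marks (21.9%) and 19 H3K27me3 (59.4%). All genes had 8.35% and 21.8%, and of all genes carrying H3K27me3, 38.3% carried both marks. In 21 of the 32 both H3K27me3 libraries covered more than both H3R17me2 libraries, against 11.7% of all genes. DIP-theta, with both marks, had 69.7% and 65.0% by H3R17me2 and 100% by H3K27me3.

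Both marks were carried by 10 of 60 odorant receptor genes (16.7%), 11 of 60 gustatory receptor genes (18.3%), 10 of 60 ionotropic receptor genes (16.7%) and 6 of 52 odorant binding protein genes (11.5%), against 8.35% of all genes. With peaks up to the same covered length in every list, the counts were 8, 5, 4 and 4, and 775 of all 13945 genes carried both. H3K27me3 was carried by 39, 23, 26 and 26 genes of these lists (65%, 38.3%, 43.3% and 50%), against 21.8% of all genes. Over all genes, 38.3% of those carrying H3K27me3 carried both marks. H3R17me2 alone was carried by 9 gustatory and 6 ionotropic receptor genes but by 1 odorant receptor and 1 odorant binding protein gene. Or59c, Gr47a, Ir94h and Obp50a were at 100% in all 4 libraries. Of 70 Cpr cuticle protein genes, 20 carried both marks (28.6%), 2 H3R17me2 only and 1 H3K27me3 only, and 38 were undecided. In all, 33 of the 70 (47.1%) carried H3K27me3. Cpr65Eb was at 100% in all 4 libraries, and Cpr66D had 54.0% and 100% by H3R17me2 with 100% by H3K27me3. Of 83 cytochrome P450 genes, for detoxification and hormone synthesis, 6 carried both marks (7.23%), 9 H3R17me2 only (10.8%), 4 H3K27me3 only (4.82%) and 26 neither (31.3%). All genes had 8.35%, 6.24%, 3.96% and 45.7%, so the share with both marks is near the background. Of 33 antimicrobial peptide genes, AttC, CecC and DptA carried both, AttD and Mtk H3K27me3 only and 16 neither, and the 9.09% with both and 48.5% with neither are near the shares of all genes.

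Of 20 Polycomb group genes, which keep H3K27me3 domains silent, 0 carried both marks and 10 (50%) neither, against 8.35% and 45.7% of all genes, which for so short a list is near the background. Psc, a PRC1 subunit gene, had 32.8% and 11.8% by H3R17me2 and 100% by H3K27me3, and its neighbour Su(z)2 also carried H3K27me3 only. esc, a PRC2 subunit gene, had 90.2% and 100% by H3R17me2 and 0% by H3K27me3. Of 9 arginine methyltransferase genes, 2 (22.2%), Art6 and Art9, carried both marks and 5 were undecided. art4, at chr3R:9982816-9986060, which encodes the fly homolog of CARM1, was undecided, at 27.9% and 100% by H3R17me2 and 0% by H3K27me3. LKRSDH itself, at chr2L:7791175-7795959, had neither, at 34.3% and 48.2% by H3R17me2 and 0% by H3K27me3. The insertion was not looked for in these lists.

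Of 8 genes for insulin-like peptides, ligands of the insulin and relaxin type, 2 carried both marks (25%), 1 H3R17me2 only (12.5%) and 2 neither (25%), and 3 were undecided. All genes had 8.35% with both, 6.24% with H3R17me2 only and 45.7% with neither. The 2 with neither, Ilp6 and Ilp7, lie on the X and were at 0% in all 4 libraries, and Ilp8 was undecided at 65.18% and 16.97% by H3R17me2 and 0% by H3K27me3. dilp1 to dilp4 stand side by side on 3L between 9798420 and 9804263, and all 4 were at 100% in both H3K27me3 libraries, under 1 peak per library with a mean fold of 1.51 and 1.61. dilp2 had 100% and 86.8% by H3R17me2 and dilp4 70.3% and 100%, so both carried both marks. dilp3 had 100% and 0%, and dilp1 44.1% and 67.4%, so both were undecided. dilp5 stands apart from them, at chr3L:9823349-9823897. It had 100% by H3R17me2 in both libraries and 45.2% and 0% by H3K27me3, and counted as H3R17me2 only. None of the H3R17me2 peaks on dilp1 to dilp5 reached q under 0.05. The H3K27me3 peak over dilp1 to dilp4 had a -log10 q of 1.06 in replicate 1, short of that threshold, and of 2.78 in replicate 2, past it, and the one on dilp5 had 0.834. In the other 3 conditions dilp5 was at 0% in 5 of 6 H3K27me3 libraries. Downstream of the peptides, 3 of 18 insulin pathway genes carried H3R17me2 only (16.7%), 2 H3K27me3 only (11.1%), 0 both and 7 neither (38.9%). All genes had 6.24%, 3.96%, 8.35% and 45.7% in that order. gig, a TOR inhibitor gene, S6k, for a kinase of ribosomal protein S6, and Pi3K92E, for a PI3-kinase, carried H3R17me2 only, gig at 72.2% and 68.5% with 0% for H3K27me3. foxo, the transcription factor that insulin signalling restrains, had 7.74% and 43.0% by H3R17me2 and 98.0% and 98.7% by H3K27me3. Its target Thor, a translation repressor gene, carried H3K27me3 only as well, while InR, the receptor gene, had neither.

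Of 18 clock genes, 12 (66.7%) had neither mark, against 45.7% of all genes, with 4 of the 18 on the X. Clk and tim carried H3K27me3 only. tim, which encodes the light-sensitive partner of Period, had 37.5% and 44.6% by H3R17me2 and 69.7% and 59.3% by H3K27me3. Clk, the activator of the loop, had 24.5% and 35.7% by H3R17me2 and 53.0% and 62.8% by H3K27me3. per, on the X, had 27.1% and 0% by H3R17me2 and 0% by H3K27me3. cyc, vri, Pdp1 and cwo also had neither, cyc at 39.2% and 37.4% by H3R17me2. cry, the blue light receptor gene, was undecided at 56.1% and 38.3%, and Pdf, the neuropeptide of the clock neurons, at 90.2% and 100% by H3R17me2 and 56.5% and 0% by H3K27me3. jet, whose product helps remove Timeless in light, carried H3R17me2 only.

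**Figure D4:**
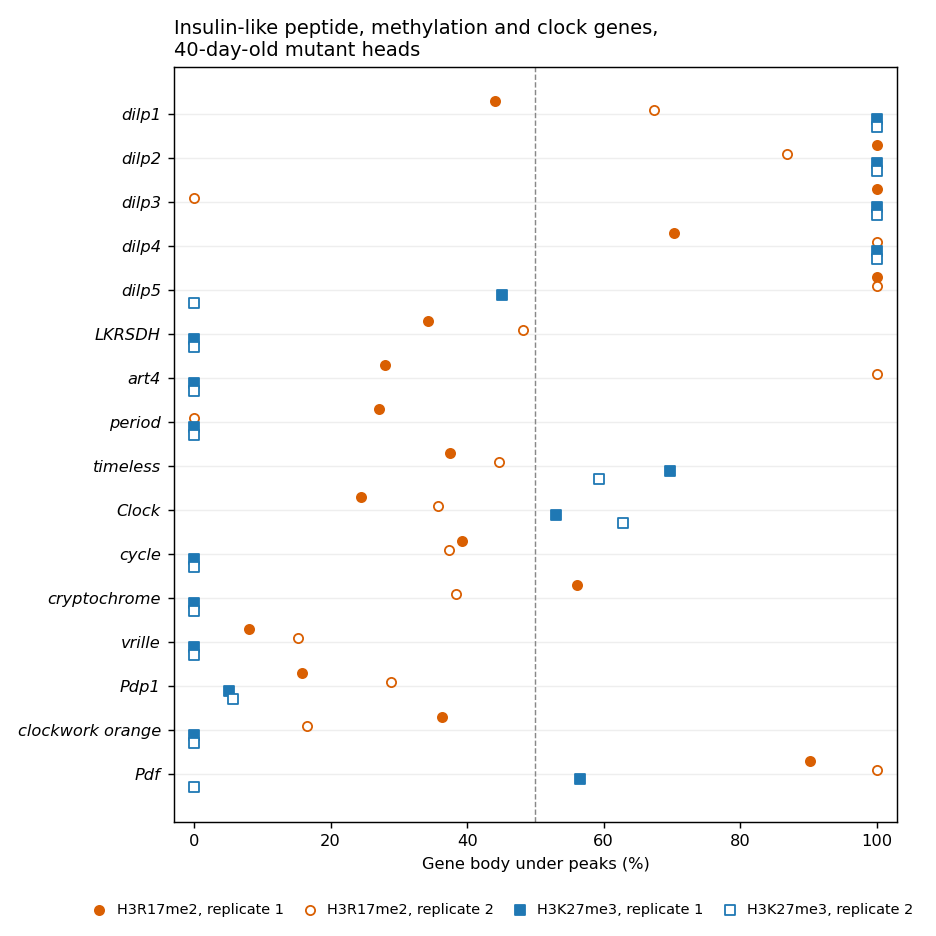
Percent of the gene body under peaks (x axis) for the insulin-like peptide genes, LKRSDH, art4 and the clock genes, with 1 marker per library (circles H3R17me2, squares H3K27me3, filled replicate 1, open replicate 2) and the 50% line dashed. dilp1 to dilp4 are at 100% for H3K27me3 while dilp5 is at 45.2% and 0%, and the H3R17me2 replicates stand far apart for dilp3 and art4.

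The classes found in old mutant heads were looked up in the 12 libraries of the other conditions, which the class rule did not use. H3K27me3 was on most of these genes elsewhere too. Of the genes with both marks, 63.9% to 93.0% carried H3K27me3 in each of the 6 other H3K27me3 libraries, and 70.8% to 88.6% of those with H3K27me3 only, against 15.2% to 25.5% of all genes. At most 5.86% of genes with H3R17me2 only did. H3R17me2 varied more between libraries. In 3-day-old w1118, 44.3% and 71.6% of the genes with both marks carried it, against 21.2% and 34.1% of all genes. Among 3-day-old mutants the shares were 46.0% and 57.0%, against 19.7% and 40.2%. The 40-day-old w1118 libraries gave 15.4% and 62.4%, against 11.6% and 26.5%. For genes with H3R17me2 only the shares were 33.0% and 50.7%, 30.0% and 57.4%, and 13.3% and 41.3% in the same order. Genes with H3K27me3 only, which lacked H3R17me2 in old mutants, carried it there at similar shares. These were 31.0% and 44.4%, 29.7% and 38.2%, and 14.3% and 36.1%. Genes with both marks had both again in both libraries in 22.1%, 16.1% and 9.10% of cases, where 4.18%, 3.12% and 2.03% of all genes were of that class. For H3K27me3 only the shares were 31.3%, 32.2% and 46.0%, against 3.61%, 4.26% and 8.07% of all genes. For neither they were 79.1%, 67.8% and 83.2%, against 51.4%, 44.1% and 54.6% of all genes.

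Old mutant heads had the highest mean share of genes under both marks, by a margin that did not pass the test. The 2 pairs of old mutant libraries had 12.8% and 16.6% of genes with both marks, above each of the 6 other same-numbered pairs. Replicate numbers are not stated to pair the libraries. With crossed numbers the marks of 40-day-old w1118 reached 13.2%, above the 12.6% of 1 crossed old mutant pair. A same-numbered pair of libraries gave 14.7 ± 2.65% of genes with both marks in old mutants (SD, n = 2 pairs) and 8.51 ± 2.84% in the other conditions (SD, n = 6 pairs, range 4.53% to 12.3%). The difference of 6.18 points gave p = 0.0714 in a two-sided exact permutation test over 28 assignments. This share was not a planned comparison, and it depends on how many genes each list covers. H3R17me2 was carried by 3739 and 5239 genes in old mutants, against 1618 to 5610 in the other conditions. H3K27me3 was carried by 3508 and 3528, against 2119 to 3552. The excess of H3R17me2 on H3K27me3 genes was 34.8 ± 3.62 points in old mutants and 23.3 ± 10.4 points in the other 6 pairs. Single pairs gave 32.2 and 37.4 in old mutants, 25.1 and 33.4 in young w1118, 25.6 and 13.7 in young mutants, and 8.31 and 33.9 in old w1118, so that old mutants overlapped with the others. The difference of 11.5 points gave p = 0.2143 in the same exact permutation test, and 11.0 points with p = 0.1786 on the autosomes. With peaks up to the same covered length in every list it was 4.06 points (exact permutation p = 0.4286). The comparison was made with earlier results on the marks by condition known.

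**Figure D5:**
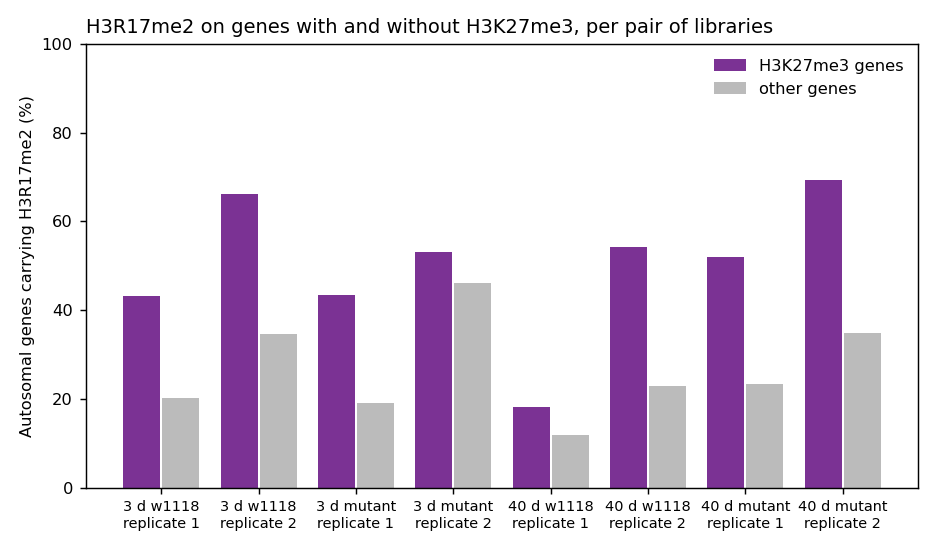
Percent of autosomal genes carrying H3R17me2 (y axis) among genes with H3K27me3 (purple) and among the other genes (grey) in each pair of libraries with the same replicate number (x axis, age, genotype and replicate). The purple bar is the higher in all 8 pairs, at 52.1% and 69.3% in the old mutants, and the gap is narrowest in 3-day-old mutant replicate 2 and 40-day-old w1118 replicate 1.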

How the data were processed

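The marks H3R17me2 and H3K27me3 were measured by ChIP-seq in heads of 40-day-old LKRSDH MB01942 mutant males, 2 biological replicates per mark. Per the study's methods and the submitters' processing notes, the authors trimmed reads with Trim Galore 0.6.0, aligned them to dm6 with Bowtie2 2.5.1, removed duplicates with Picard, handled files with SAMtools 1.19 and called broad peaks against input with MACS2 2.2.7.1 (p of 0.01, minimum length 500 bp). The deposited peak lists give each peak's fold enrichment, a ratio of immunoprecipitated to input signal, and its -log10 p and -log10 q values, all computed by the authors. They hold no counts, and the study states a nominal sequencing depth but no value per library. The depth reached in each is therefore unknown, and no interval was computed.

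Overlapping peaks of a list were merged and the covered share of each of 13945 protein-coding genes on 2L, 2R, 3L, 3R, 4 and X (Ensembl release 115, BDGP6) was taken in every library. Groups of libraries were compared by two-sided exact permutation tests. Replicates are stated to be biological, and with 2 per mark no gene was tested. The same replicate number is not stated to mark a shared pool of flies. Alternatives changed the share of the body, the peak threshold, the covered length, the region, the genes and the replicates. Named genes were the dilp genes, LKRSDH, art4 and clock genes, the longest genes at full contrast (5 per class with a mark, 3 with neither), and up to 4 members per gene list by mean coverage of a mark. Other genes were named after their values were seen. The classes and the 25 gene lists were chosen with earlier results of these data known. On simulated lists, 22 of 22 checks of the functions returned what had been built in. Python 3.11.15, NumPy 2.4.6, pandas 2.3.3 and matplotlib 3.10.9 were used. Inputs were not analysed here.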

Additional observations from a re-analysis of the deposited data

How the results depend on the processing

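Covering 20% of the body in place of 50% gave 2461 genes with both marks, 2504 with H3R17me2 only, 311 with H3K27me3 only and 3941 with neither, and 80% gave 422, 240, 872 and an excess of H3R17me2 on H3K27me3 genes of 28.8 points. Peaks of -log10 p of at least 3 gave 0, 0, 736 and 12019 genes in the 4 classes, and q under 0.05 gave 0, 0, 1111 and 11032, with no excess to compute since 0 genes carried H3R17me2. Equal covered length gave 775 genes with both marks, and 1 kb on either side of the start site gave 749 with both and 379 with H3R17me2 only. Genes that overlap no other gene gave 429 with H3R17me2 only, 3593 with neither and a difference in genes carried per library of 207. The difference in genes carried per library, 971, became -595.5 at 80% of the body, -1331 and -2012 under the stricter peak thresholds, which nearly empty the H3R17me2 lists, and -107.5 around the start site, where the cause was not tested. Leaving out 1 library at a time gave 1284 to 2079 genes with both marks, 989 to 2676 with H3R17me2 only, 691 to 1466 with H3K27me3 only, 6516 to 8183 with neither, a difference of 221 to 1721 genes and an excess of 32.2 to 37.4 points. With the replicate block the difference was again 971, from 231 and 1711 genes within the numbers (exact sign-flip permutation p = 0.5). Deviations of same-numbered libraries correlated at -0.00274 over genes. With 2 libraries per mark this cannot decide whether the numbers pair the libraries. All 4 pairings of libraries gave an excess of 34.8 points. The difference in excess from the other conditions ran from 4.06 points (equal covered length, exact permutation p = 0.4286) to 13.2, was 12.6 with crossed replicate numbers (exact p = 0.1786), and was 8.44 to 14.0 with each same-numbered pair left out, which was chosen after seeing the data. Of 900 counts of list members under the alternatives, 520 stayed within 1.5 times. The depth reached in each library is unknown, so what it limits cannot be given.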
